A study of Homo sapiens with 18 samples.

Results

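Neural crest specifiers are transcription factors of the gene network that turns cells at the border of the neural plate into neural crest, and 9 of them were followed here: SOX9, SOX10, SNAI1, SNAI2, FOXD3, TFAP2A, TFAP2B, TFAP2C and ETS1. They were taken by gene symbol from a table of 37550 rows, and all 9 were among the 17033 genes that reached 1 TPM in 2 or more libraries, the level required for testing. TPM (transcripts per unit of the library total) is a level scaled for transcript length and for the library total. Polyadenylated RNA was measured in 18 libraries of H1, an established wild-type human pluripotent stem cell line, in 9 groups of 2 biological replicates. The study asked how anterior and posterior neural ectoderm differ and how each responds to media for forebrain, midbrain and hindbrain.

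The undifferentiated cells (hPSC) were collected at day 0. All other groups shared a day-1 definitive ectoderm medium with A8301 at 1 µM, Trametinib at 250 nM, C59 at 1 µM and LDN193189 at 100 nM, which inhibit TGF-beta receptors, MEK, WNT ligand secretion and BMP receptors in that order. On day 2, anterior neural ectoderm (aNE) received A8301 at 1 µM, LDN193189 at 100 nM, C59 at 1 µM and the ROCK inhibitor Thiazovivin at 1 µM. Posterior neural ectoderm (pNE) received A8301, LDN193189 and Thiazovivin at those doses, and in place of C59 it received XAV939, which inhibits tankyrase, at 1 µM, FGF2 at 20 ng/mL and TTNPB, which activates retinoic acid receptors, at 50 nM. Cells of each origin were also carried to day 4 in a forebrain (aNE_T, pNE_T), midbrain (aNE_M, pNE_M) or hindbrain (aNE_H, pNE_H) medium. The forebrain medium of day 3 held XAV939 at 1 µM, LDN193189 at 100 nM and FGF2 at 20 ng/mL, and what the other 2 day-4 media held was not used here. The plating density was 37500 cells per cm2 in both day-2 groups. For the day-4 groups it was 75000 from aNE and 150000 from pNE, so at day 4 the effects of origin and of plating density cannot be told apart. Day-4 groups also differ from day-2 groups in time and in plating density, which cannot be told apart from the medium. Every group comes from the same cell line in culture.

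In the embryo, BMP, WNT and FGF signals set up the neural plate border, where PAX3, PAX7, MSX and ZIC factors are expressed. The specifiers then act in overlapping order: AP-2 factors (TFAP2A to TFAP2C) and FOXD3 early, Snail factors (SNAI1, SNAI2), which repress epithelial cadherin and help cells leave the epithelium, and SOXE factors (SOX9, SOX10), with SOX10 the lasting mark of migrating crest and its glial and pigment derivatives. ETS1 is typical of cranial crest. None of these factors is exclusive to crest: SOX9 is also made by neural progenitors, FOXD3 by pluripotent cells, the AP-2 factors by surface ectoderm, and ETS1 by endothelium and blood.

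The 9 genes did not all reach their highest levels in the same group. By mean, SOX9, SNAI1, SNAI2 and TFAP2A peaked in aNE_H, SOX10 in pNE_H, FOXD3 and ETS1 in hPSC, TFAP2B in aNE_M and TFAP2C in the day-2 cells. SOX9 and SNAI1 were at or above 1 TPM in 18 libraries, SNAI2 and ETS1 in 17, TFAP2C in 15 and SOX10 in 12. TFAP2A was at or above 1 TPM in 6 libraries, and TFAP2B and FOXD3 in 4 each. These last 3 genes entered the test through the few groups where they were high. The libraries were alike in the number of genes at or above 1 TPM, from 13686 to 14679, and each library correlated best with its own replicate. The read depth behind a TPM is unknown.

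**Figure D1:**
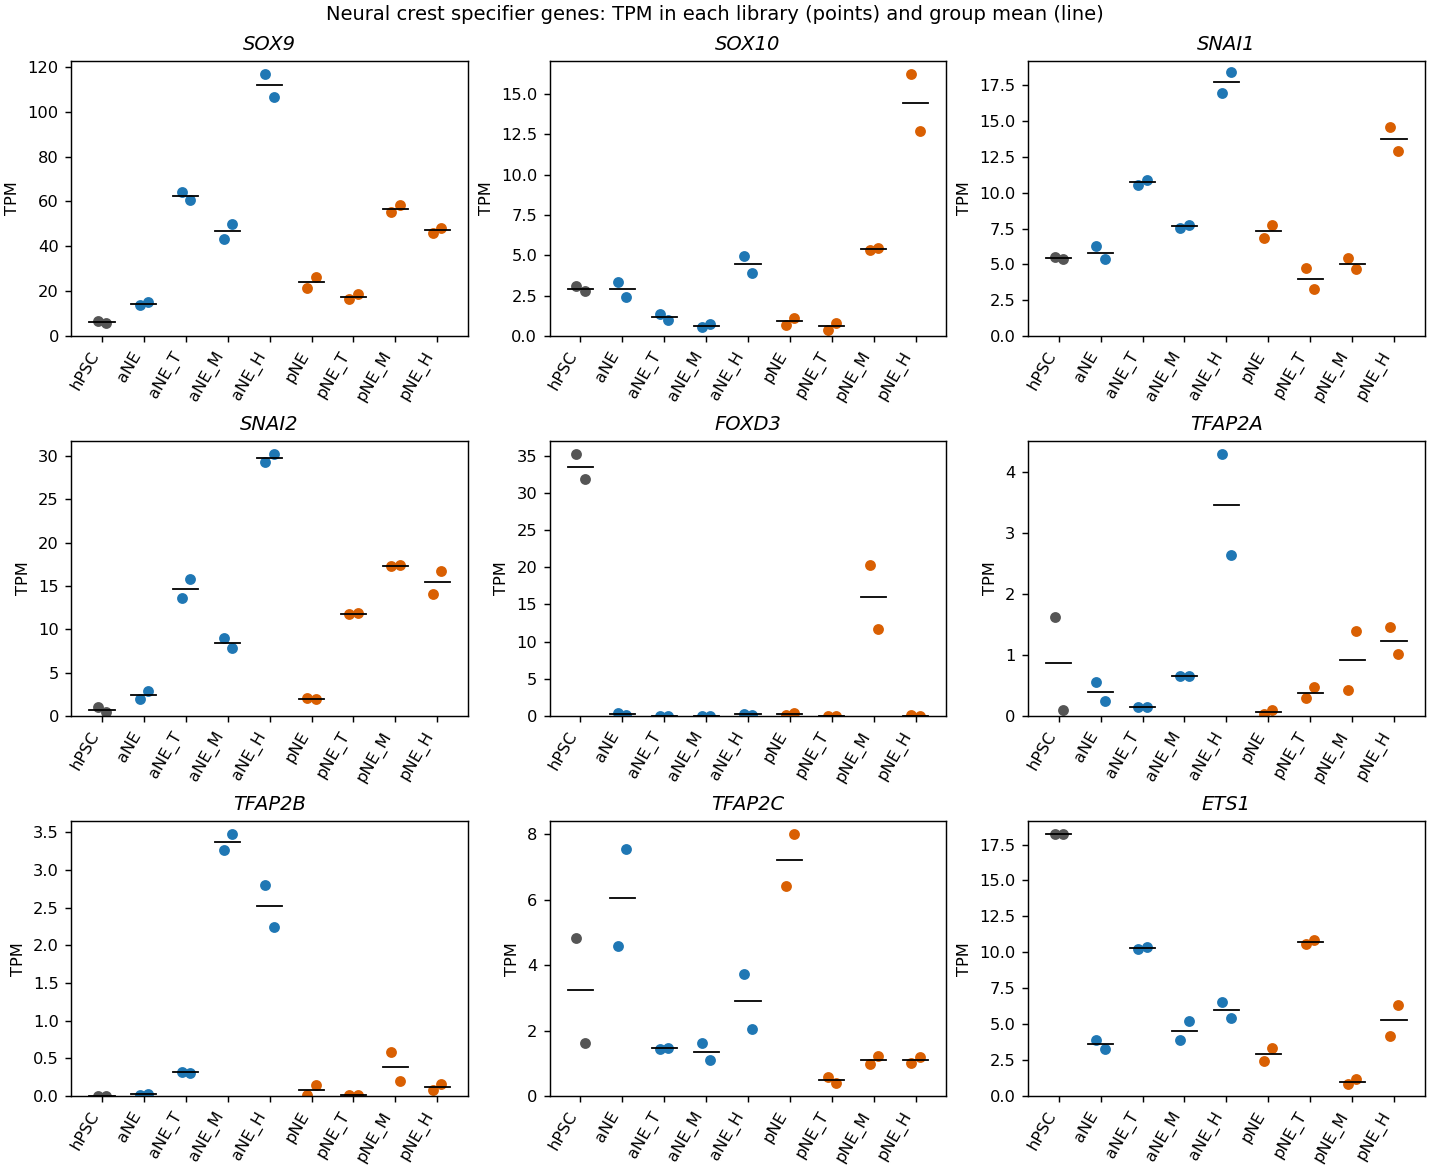
TPM of each of the 9 genes (vertical axes, separate scales) in the 9 groups (horizontal axis), with a point for each of the 2 libraries and a line for their mean. SOX9 ranges from 5.79 TPM in an hPSC library to 117 TPM in an aNE_H library, and FOXD3 is above 10 TPM in hPSC and pNE_M alone.

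Differences are given as log2(TPM + 1) with SE from limma, fitted to all 18 libraries, and a gene was called changed at a Benjamini-Hochberg adjusted p under 0.05 over all 17033 genes and an absolute log2 difference of at least 1. In bulk RNA, fewer cells of a type and less RNA per cell cannot be told apart. The design text calls the 2 replicates of a group biological but does not say what separated them, so p-values measure the spread between these libraries.

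SOX9, an SOXE factor at chr17:72121020-72126416 (GRCh38.p14), was the most abundant of the set in all but hPSC and was highest in anterior cells kept in the hindbrain medium. Its level was 6.57 and 5.79 TPM in hPSC, 13.7 and 15.0 TPM in aNE and 21.5 and 26.4 TPM in pNE. At day 4 it stood at 64.0 and 60.6 TPM in aNE_T, 43.3 and 50.0 TPM in aNE_M and 117 and 107 TPM in aNE_H. In cells from pNE it stood at 16.4 and 18.8 TPM in pNE_T, 55.2 and 58.5 TPM in pNE_M and 45.9 and 48.2 TPM in pNE_H. All 3 anterior day-4 groups lay above aNE with no overlap, whereas pNE_T lay below pNE. SOX9 rose by 2.87 ± 0.11 (SE, adjusted p = 1.4e-09) in aNE_H against aNE, by 2.04 ± 0.11 (adjusted p = 3.36e-08) in aNE_T and by 1.63 ± 0.11 (adjusted p = 1.53e-07) in aNE_M. From pNE it rose by 1.22 ± 0.11 (adjusted p = 2.46e-06) in pNE_M. The differences of 0.95 ± 0.11 in pNE_H (adjusted p = 2.36e-05) and -0.42 ± 0.11 in pNE_T (adjusted p = 0.0115) did not reach 1.

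The SOX9 difference between origins had one sign at day 2 and the other in the forebrain and hindbrain media. At day 2 pNE exceeded aNE by 0.69 ± 0.11 (adjusted p = 0.00106), under the size required for a call. At day 4 SOX9 was lower in pNE_T than in aNE_T, by -1.77 ± 0.11 (adjusted p = 1.06e-07), and lower in pNE_H than in aNE_H, by -1.23 ± 0.11 (adjusted p = 4.22e-06). In the midbrain medium the difference was 0.28 ± 0.11 (adjusted p = 0.117). SOX9 is shared with neural progenitors, and the 7 neural progenitor genes listed (SOX1, SOX2, PAX6, NES, HES5, FABP7, SLC1A3) summed to 1172 and 1146 TPM in aNE_T, 911 and 933 TPM in pNE_T, 438 and 401 TPM in aNE_H and 430 and 408 TPM in pNE_H. Of these, HES5 was listed at 0 in both libraries of aNE_H and pNE_H. Their part in the SOX9 levels was not tested. Ordered by mean, SOX9 ran from aNE_H through aNE_T, pNE_M, pNE_H, aNE_M, pNE, pNE_T and aNE to hPSC. The libraries of pNE_H and aNE_M overlapped, and the steps from aNE_T to pNE_M, pNE_M to pNE_H and pNE_T to aNE had adjusted p of 0.416, 0.127 and 0.0832.

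SOX10, its close relative at chr22:37972312-37984555 (GRCh38.p14), showed another pattern, with its highest level in cells from pNE. It was at 3.08 and 2.78 TPM in hPSC, 3.36 and 2.44 TPM in aNE and 0.708 and 1.14 TPM in pNE. In cells from aNE it was at 1.39 and 0.981 TPM in aNE_T, 0.539 and 0.756 TPM in aNE_M and 4.96 and 3.90 TPM in aNE_H. In cells from pNE it was at 0.394 and 0.809 TPM in pNE_T, 5.35 and 5.43 TPM in pNE_M and 16.2 and 12.7 TPM in pNE_H. Both pNE_H libraries were above every other library, and pNE_M came next. The step from pNE_M to aNE_H was 0.24, with no overlap and an adjusted p of 0.482. SOX10 rose by 3.01 ± 0.21 (SE, adjusted p = 1.42e-07) in pNE_H against pNE, 15.7-fold in mean TPM, and by 1.74 ± 0.21 (adjusted p = 2.16e-05) in pNE_M. In aNE_M it fell by 1.24 ± 0.21 (adjusted p = 0.000413) against aNE. The differences from aNE were -0.83 ± 0.21 (adjusted p = 0.00766) in aNE_T and 0.48 ± 0.21 (adjusted p = 0.0962) in aNE_H.

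Between origins SOX10 was higher in pNE_M than in aNE_M by 1.96 ± 0.21 (adjusted p = 1.63e-05) and higher in pNE_H than in aNE_H by 1.51 ± 0.21 (adjusted p = 0.00014). At day 2 its difference was -1.02 ± 0.21 (adjusted p = 0.00478, lower in pNE), a call that ended without aNE replicate 1 (-0.85) or pNE replicate 1 (-0.86). With only the libraries compared in the fit, the call at day 2 also ended (adjusted p = 0.12, from 0.00189 to 0.12 over its alternatives), as did that in the hindbrain medium (adjusted p = 0.0573, from 6.71e-05 to 0.0573). Below aNE_H the groups stood at 2 levels: hPSC overlapped aNE, and lower down aNE_T, pNE, aNE_M and pNE_T each overlapped the next. The step from aNE to aNE_T had no overlap (0.83, adjusted p = 0.00766). SOX10 lies across POLR2F, which encodes an RNA polymerase subunit and was listed at 149 to 271 TPM in the 18 libraries. POLR2F stood at 195 and 180 TPM in pNE_H, 233 and 203 TPM in pNE_M and 221 and 271 TPM in aNE_H, the 3 groups with the most SOX10. It was at 231 and 235 TPM in hPSC and at 159 and 149 TPM in pNE_T, where both genes were lowest by mean. Its part in the SOX10 levels was not tested. Whether the quantification used strand is not given in the sources used here.

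SOX8, the other SOXE gene, was not a member and was read as a relative. It stood at 46.9 and 46.2 TPM in pNE_M, 30.8 and 24.5 TPM in pNE_H and 18.9 and 14.8 TPM in aNE_M, against 1.37 and 1.72 TPM in pNE and 1.51 and 1.41 TPM in aNE. Its highest groups were thus the midbrain and hindbrain cells from pNE, the same 2 groups in which SOX10 was highest by mean. Their order differed, with mean SOX8 higher in pNE_M (46.5 TPM) and mean SOX10 higher in pNE_H (14.5 TPM). In aNE_M against aNE, SOX8 was called higher and SOX10 lower. In aNE_H against aNE_M, SOX8 was called lower and SOX10 higher. SOX8 was higher in pNE_H than in aNE_H by 2.20 and in pNE_M than in aNE_M by 1.42, both called.

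**Figure D2:**
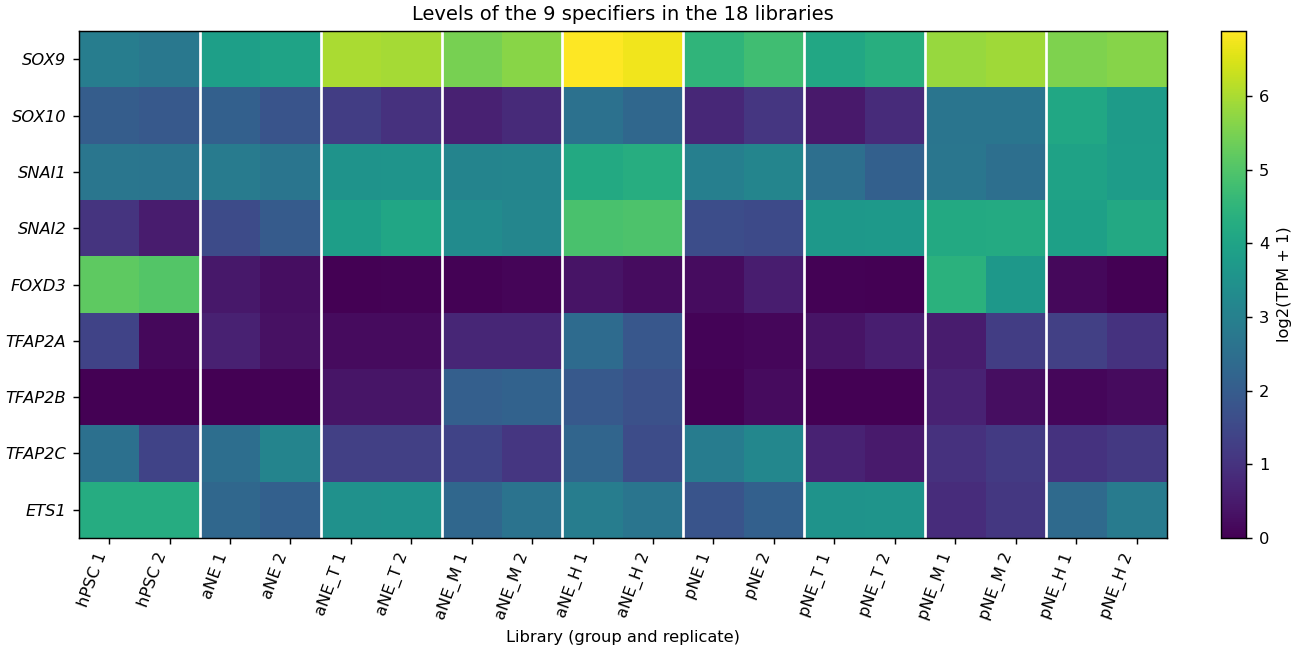
Level of each of the 9 genes (rows) in each of the 18 libraries (columns, with white lines between groups), in colour as log2(TPM + 1). By group mean SOX9 is highest in aNE_H (112 TPM), SOX10 in pNE_H (14.5 TPM) and TFAP2B in aNE_M (3.37 TPM).

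The Snail factors were both highest in aNE_H. SNAI2, at chr8:48917598-48921429 (GRCh38.p14), was at 1.04 and 0.426 TPM in hPSC, 2.00 and 2.92 TPM in aNE and 2.08 and 1.92 TPM in pNE. At day 4 it was at 13.6 and 15.8 TPM in aNE_T, 9.02 and 7.88 TPM in aNE_M and 29.3 and 30.2 TPM in aNE_H. From pNE it was at 11.7 and 11.9 TPM in pNE_T, 17.3 and 17.4 TPM in pNE_M and 14.0 and 16.8 TPM in pNE_H. Every day-4 library stood above every day-2 library and every hPSC library. SNAI2 was the one member called higher in all 6 comparisons of day-4 with day-2 cells, from 1.46 ± 0.18 (SE, adjusted p = 2.6e-05) in aNE_M to 3.17 ± 0.18 (adjusted p = 2.85e-08) in aNE_H. From pNE the rises were 2.09 ± 0.18 in pNE_T (adjusted p = 1.3e-06), 2.61 ± 0.18 in pNE_M (adjusted p = 1.07e-07) and 2.45 ± 0.18 in pNE_H (adjusted p = 2.19e-07).

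At day 4 no origin difference of SNAI2 reached 1. It was 0.96 ± 0.18 (adjusted p = 0.00178) in the midbrain medium, -0.91 ± 0.18 (adjusted p = 0.00207) in the hindbrain medium and -0.29 ± 0.18 (adjusted p = 0.287) in the forebrain medium. At day 2 SNAI2 was called higher in aNE than in hPSC at 1.01 ± 0.18 (adjusted p = 0.000517), close to the limit of 1. The difference was 0.75 without hPSC replicate 2 and 0.81 without aNE replicate 2, and 0.88 and 0.95 under other scalings of the libraries. By mean, SNAI2 ran from aNE_H through pNE_M, pNE_H, aNE_T, pNE_T, aNE_M, aNE and pNE to hPSC. The libraries of pNE_H and aNE_T overlapped, as did those of aNE and pNE, and the adjusted p was 0.598 between pNE_M and pNE_H, 0.287 between aNE_T and pNE_T and 0.0712 between pNE_T and aNE_M.

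SNAI1, at chr20:49982980-49988886 (GRCh38.p14), varied least of the 9 genes, 4.42-fold between the highest and lowest group mean. It was at 5.50 and 5.36 TPM in hPSC, 6.25 and 5.39 TPM in aNE and 6.85 and 7.77 TPM in pNE. At day 4 it was at 10.6 and 10.9 TPM in aNE_T, 7.57 and 7.78 TPM in aNE_M and 17.0 and 18.4 TPM in aNE_H. From pNE it was at 4.72 and 3.30 TPM in pNE_T, 5.45 and 4.66 TPM in pNE_M and 14.6 and 12.9 TPM in pNE_H. Both hindbrain groups lay above all other libraries. SNAI1 rose in aNE_H against aNE by 1.46 ± 0.14 (SE, adjusted p = 6.49e-06), and its difference in pNE_H against pNE was 0.83 ± 0.14 (adjusted p = 0.000565). It was lower in pNE_T than in aNE_T by -1.24 ± 0.14 (adjusted p = 3.06e-05). Among cells from pNE it was higher in pNE_H than in pNE_M by 1.28 ± 0.14 (adjusted p = 3.28e-05) and than in pNE_T by 1.57 ± 0.14 (adjusted p = 7.11e-06). The last call ended with only the libraries compared in the fit (adjusted p = 0.0607, the highest of its alternatives, whose lowest was 4.24e-06). At the lower end of its order, aNE, hPSC, pNE_M and pNE_T overlapped each neighbour, and the step from aNE_H to pNE_H had an adjusted p of 0.115. The pseudogene SNAI1P1, a near copy of SNAI1, was at 0 to 1.13 TPM.

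Among epithelial genes that Snail factors are known to repress, CDH1 (epithelial cadherin) stood at 55.6 and 49.8 TPM in aNE and at 88.6 and 86.3 TPM in pNE. At day 4 it stood between 0.759 TPM in a pNE_M library and 12.1 TPM in an aNE_H library. CDH1 and EPCAM, an epithelial adhesion molecule, were called lower in all 6 comparisons of day-4 with day-2 cells. ZEB1, a further repressor of CDH1, was called higher in all 6. VIM, an intermediate filament of mesenchymal and neural progenitor cells, rose in the 3 comparisons aNE_M against aNE, aNE_H against aNE and pNE_M against pNE. SNAI2 was called higher in the same 6 comparisons, and SNAI1 in 1 of them, aNE_H against aNE. Within day 4, CDH1 was called higher in aNE_H than in aNE_M, as were SNAI1 (1.11) and SNAI2 (1.71). The part of the Snail factors in the CDH1 and EPCAM levels was not tested.

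FOXD3, at chr1:63322567-63325128 (GRCh38.p14), is a forkhead repressor of the early crest and of pluripotent cells. Its level was 35.2 and 31.8 TPM in hPSC and 20.2 and 11.6 TPM in pNE_M. The other 14 libraries lay between 0 and 0.475 TPM, with 3 of them listed at 0. Between day 0 and day 2 FOXD3 fell by 4.76 ± 0.22 (SE, adjusted p = 4.42e-09) in aNE, and it was also called lower in pNE. It then rose by 3.64 ± 0.22 (adjusted p = 5e-08) in pNE_M against pNE. Its difference was 3.96 ± 0.22 between pNE_M and aNE_M (adjusted p = 4.97e-08) and 4.01 ± 0.22 between pNE_M and pNE_T (adjusted p = 2.59e-08). It was lower in pNE_H than in pNE_M, by -3.96 ± 0.22 (adjusted p = 6.27e-08). The 2 pNE_M libraries differed from each other, with a mean of 15.9 ± 6.1 TPM (SD, n = 2), and both lay below hPSC.

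Since FOXD3 is shared with pluripotent cells, the 6 pluripotency genes listed (POU5F1, NANOG, DPPA4, TDGF1, PRDM14, DNMT3B) were set beside it. They summed to 5365 and 5409 TPM in hPSC, 164 and 170 TPM in pNE_M and 193 and 201 TPM in aNE_M, where FOXD3 was at 0.0296 and 0.0728 TPM. In pNE_M POU5F1 was at 4.17 and 5.31 TPM, NANOG at 0.120 and 0.105 TPM and PRDM14 at 0.160 and 0.546 TPM, against 77.4 and 76.2 TPM for NANOG in hPSC. NANOG and PRDM14 were under 1 TPM in pNE_M, while POU5F1 was not. Their part in the FOXD3 level was not tested. Mesoderm and endothelium genes (10 listed) summed to 15.4 and 15.0 TPM in pNE_M and to 103 and 124 TPM in aNE_M, of which MIXL1 made up 78.0 and 94.9 TPM.

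The RefSeq promoter windows in hand covered only FOXD3, TFAP2A and TFAP2B among the 9 genes, and all 3 are shown. These 3 genes were near 0 in most groups and called higher in a few. Each is the 250 bases before the listed start site, written 5′ to 3′ on the strand of the gene (GRCh38.p14). FOXD3 is chr1:63322317-63322566 on the plus strand, TFAP2A chr6:10419660-10419909 on the minus strand and TFAP2B chr6:50818621-50818870 on the plus strand, the last at a start site inside the gene record.
FOXD3: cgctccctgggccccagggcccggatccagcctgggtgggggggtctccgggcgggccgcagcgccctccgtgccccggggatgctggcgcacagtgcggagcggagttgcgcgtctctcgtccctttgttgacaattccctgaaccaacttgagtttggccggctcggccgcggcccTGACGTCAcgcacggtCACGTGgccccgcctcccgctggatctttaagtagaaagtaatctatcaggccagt
TFAP2A: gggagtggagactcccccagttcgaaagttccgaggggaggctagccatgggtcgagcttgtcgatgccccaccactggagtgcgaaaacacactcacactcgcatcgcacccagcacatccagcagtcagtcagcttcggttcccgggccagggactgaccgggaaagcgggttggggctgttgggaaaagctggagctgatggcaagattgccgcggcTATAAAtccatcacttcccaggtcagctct
TFAP2B: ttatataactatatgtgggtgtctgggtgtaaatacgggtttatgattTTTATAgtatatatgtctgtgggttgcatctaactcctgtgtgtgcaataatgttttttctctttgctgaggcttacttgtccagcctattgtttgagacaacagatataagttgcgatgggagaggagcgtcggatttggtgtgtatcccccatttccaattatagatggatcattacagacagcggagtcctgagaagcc
Capitals mark letters found by motif search on both strands. In FOXD3 they are TGACGTCA, the cyclic AMP response element, 72 bases before the start site, and CACGTG, the palindromic E-box, 56 bases before it. The TFAP2A window held TATAAA, the TATA box, 30 bases before the start site, and the TFAP2B window held the same letters on the opposite strand, 202 bases before it. None of the 3 windows held the exact letters GCCNNNGGC (AP-2, N for any base), CAGGTG (the Snail E-box) or CTTTGAT (TCF/LEF). Other forms of these sites were not searched for, so their absence is not shown. Of 35116 windows of this length, 19.79% held GCCNNNGGC, 17.49% CAGGTG and 2.261% CTTTGAT. TGACGTCA was in 1.646%, CACGTG in 6.345% and TATAAA in 10.72%, and these 3 motifs were searched for after the windows were read. The GC content was 67.6% for FOXD3, 59.6% for TFAP2A and 40.8% for TFAP2B.

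The AP-2 factors differed from each other. TFAP2B, at chr6:50818355-50847619 (GRCh38.p14), was at 3.27 and 3.47 TPM in aNE_M and 2.80 and 2.25 TPM in aNE_H. In the other 14 libraries, it lay between 0 and 0.585 TPM, with both hPSC libraries listed at 0. The anterior midbrain and hindbrain groups were therefore the only ones above 1 TPM. TFAP2B rose by 2.09 ± 0.19 (SE, adjusted p = 1.6e-06) in aNE_M and by 1.78 ± 0.19 (adjusted p = 1.03e-05) in aNE_H against aNE. It was lower in pNE_M than in aNE_M by -1.67 ± 0.19 (adjusted p = 2.82e-05) and lower in pNE_H than in aNE_H by -1.65 ± 0.19 (adjusted p = 2.62e-05). The step from aNE_M to aNE_H had an adjusted p of 0.324.

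TFAP2A, at chr6:10396677-10419659 (GRCh38.p14), an early AP-2 factor of border, crest and surface ectoderm, stayed low throughout. It was at 4.30 and 2.64 TPM in aNE_H and 1.46 and 1.02 TPM in pNE_H, and at 0.434 and 1.39 TPM in pNE_M. The hPSC libraries were far apart, at 1.63 and 0.0988 TPM, and the remaining 10 libraries lay between 0.0402 and 0.660 TPM. Both aNE_H libraries were above all others. TFAP2A rose by 1.66 ± 0.36 (SE, adjusted p = 0.00335) in aNE_H against aNE. It was also higher in aNE_H than in aNE_T by 1.94 ± 0.36 (adjusted p = 0.00134). The call in pNE_H against pNE, 1.06 ± 0.36 (adjusted p = 0.033), ended without any 1 of the 4 libraries compared. Over its alternatives the adjusted p ran between 0.0119 and 0.15. That in aNE_H against aNE_M, 1.40 ± 0.36 (adjusted p = 0.018), ended in 5 of 10 alternatives, with an adjusted p from 0.0119 to 0.135.

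TFAP2C, at chr20:56629306-56639283 (GRCh38.p14), an AP-2 factor also known from germ cells, trophoblast and naive pluripotency, went the other way, with its highest mean in the day-2 cells. It was at 4.83 and 1.63 TPM in hPSC, then at 4.58 and 7.53 TPM in aNE and 6.42 and 8.02 TPM in pNE. At day 4 it was at 1.45 and 1.48 TPM in aNE_T, 1.62 and 1.11 TPM in aNE_M and 3.73 and 2.06 TPM in aNE_H. From pNE it was at 0.591 and 0.412 TPM in pNE_T, 0.973 and 1.23 TPM in pNE_M and 1.02 and 1.20 TPM in pNE_H. Every day-4 library was below every day-2 library. TFAP2C fell by 2.45 ± 0.33 (SE, adjusted p = 8.76e-05) in pNE_T, by 1.96 ± 0.33 (adjusted p = 0.000443) in pNE_M and by 1.96 ± 0.33 (adjusted p = 0.000449) in pNE_H against pNE. From aNE it fell by 1.48 ± 0.33 (adjusted p = 0.00411) in aNE_T and by 1.55 ± 0.33 (adjusted p = 0.00262) in aNE_M, and in aNE_H the difference was -0.86 ± 0.33 (adjusted p = 0.0672). The call in aNE_T ended without aNE replicate 2 (adjusted p = 0.0533, the highest of its alternatives, whose lowest was 0.00279). The call of TFAP2C in pNE against hPSC, 1.06 ± 0.33 (adjusted p = 0.0223), rested on an hPSC library: the difference was 0.49 without hPSC replicate 2 and 1.64 without hPSC replicate 1. Without pNE replicate 2 it was 0.92, also not called.

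Markers of surface ectoderm and amnion, tissues that also make AP-2 factors, were set beside them. The 11 genes listed (KRT7, KRT8, KRT18, KRT19, GATA2, GATA3, TP63, GRHL2, GRHL3, ISL1, HAND1) summed to 1478 and 1371 TPM in aNE_H, 1170 and 1088 TPM in aNE_M and 694 and 680 TPM in aNE_T, in the same order as TFAP2A. That order did not hold by mean in cells from pNE. The sum was 2263 and 2319 TPM in pNE_M, with mean TFAP2A at 0.914 TPM and TFAP2B at most 0.585 TPM. It was 1804 and 1571 TPM in pNE_H, with mean TFAP2A at 1.24 TPM. In pNE_T it was 1422 and 1551 TPM, with mean TFAP2A at 0.385 TPM, beside 3.47 TPM in aNE_H. Of the 9 tested, KRT8 and KRT18 were called higher and KRT7, KRT19 and GRHL2 lower in aNE_H against aNE (3.24% and 6.83% of all genes). In pNE_H against pNE, GATA2 and GATA3 were called higher and KRT19, GRHL2 and GRHL3 lower (4.47% and 7.80%). Keratins KRT8, KRT18 and KRT19 made up most of these sums. TP63, the defining factor of surface ectoderm, was at 0.403 and 0.0655 TPM in aNE_H and at 0.0550 and 0.0126 TPM in aNE_M, and HAND1 was listed at 0 in both aNE_H libraries. Their part in the AP-2 levels was not tested.

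ETS1, at chr11:128458765-128587558 (GRCh38.p14), was highest in hPSC at 18.3 and 18.2 TPM. In the day-2 cells it was at 3.91 and 3.28 TPM from aNE, 2.47 and 3.36 TPM from pNE, and in the forebrain groups at 10.2 and 10.4 TPM in aNE_T and 10.5 and 10.8 TPM in pNE_T. The midbrain and hindbrain groups held 3.93 and 5.19 TPM in aNE_M, 6.53 and 5.41 TPM in aNE_H, 0.835 and 1.18 TPM in pNE_M and 4.21 and 6.32 TPM in pNE_H. Both forebrain groups lay above every other differentiated library, and pNE_M lay below all. Against hPSC, ETS1 fell in aNE by 2.07 ± 0.19 (SE, adjusted p = 2.05e-06), and in pNE it fell by 2.31 ± 0.19 (adjusted p = 7.86e-07). It rose by 1.30 ± 0.19 (adjusted p = 0.000158) in aNE_T against aNE and by 1.59 ± 0.19 (adjusted p = 2.69e-05) in pNE_T against pNE. ETS1 was lower in pNE_M than in pNE_T by -2.55 ± 0.19 (adjusted p = 3.59e-07) and than in aNE_M by -1.47 ± 0.19 (adjusted p = 9.37e-05). The last call ended with only the libraries compared in the fit (adjusted p = 0.0541, the highest of its alternatives, whose lowest was 3.51e-05). The call in aNE_M against aNE_T, -1.03 ± 0.19, was close to the limit. It was -0.87 without aNE_M replicate 1, and -0.99 and -0.87 under other scalings of the libraries.

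ETS1 is also a factor of endothelium, and endothelial markers stood at mixed levels beside it. KDR was at 53.9 and 52.4 TPM in hPSC, 18.8 and 19.1 TPM in aNE_T, 20.9 and 17.6 TPM in pNE and 1.19 and 1.05 TPM in pNE_T. CDH5 was at 22.8 and 23.3 TPM in pNE_T and 4.28 and 3.52 TPM in aNE_T, and at 0.647 and 0.507 TPM in hPSC. PECAM1 was at or below 1.02 TPM and TAL1 at or below 0.193 TPM in all 18 libraries. The 10 mesoderm and endothelium genes summed to 58.4 and 58.1 TPM in hPSC, 24.7 and 24.8 TPM in aNE_T, 25.9 and 27.0 TPM in pNE_T and 15.4 and 15.0 TPM in pNE_M. Their part in the ETS1 levels was not tested.

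The members were then read together, comparison by comparison, beside the share of all tested genes called. Against hPSC, aNE had 4 of 9 members called (SOX9, SNAI2, FOXD3, ETS1), where 13.5% of all tested genes were called. In pNE 5 of 9 were called (SOX9, SOX10, FOXD3, TFAP2C, ETS1) against 12.9%. In each, FOXD3 and ETS1 were lower and SOX9 higher, and the 2 comparisons share the hPSC libraries. FOXD3 was tested through hPSC and pNE_M alone, the groups where it was high. The rise of SOX9 was 1.10 ± 0.11 in aNE (adjusted p = 6.51e-06), and in pNE it was 1.79 ± 0.11 (adjusted p = 7.19e-08). The difference of SOX10 in pNE against hPSC, called at -1.04 ± 0.21 (adjusted p = 0.00143), was -0.88 without pNE replicate 1 and -0.99 without hPSC replicate 1.

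Between origins, 1 of 9 members was called at day 2 (SOX10, lower in pNE), where 3.85% of all genes were called. The forebrain medium gave 2 of 9 (SOX9 and SNAI1, both lower in pNE_T) against 7.77%. In the midbrain medium 4 of 9 were called, with SOX10 and FOXD3 higher and TFAP2B and ETS1 lower in pNE_M, against 5.74%. In the hindbrain medium 3 of 9 were called, with SOX10 higher and SOX9 and TFAP2B lower in pNE_H, against 6.83%. FOXD3 was tested through hPSC and pNE_M alone, and TFAP2B through aNE_M and aNE_H alone. For the midbrain and hindbrain counts, which include them, the shares over all genes are thus not a like measure. SOX10 was the one member called higher in cells from pNE in more than 1 medium, and SOX9 and TFAP2B were each called lower there in 2 media.

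**Figure D3:**
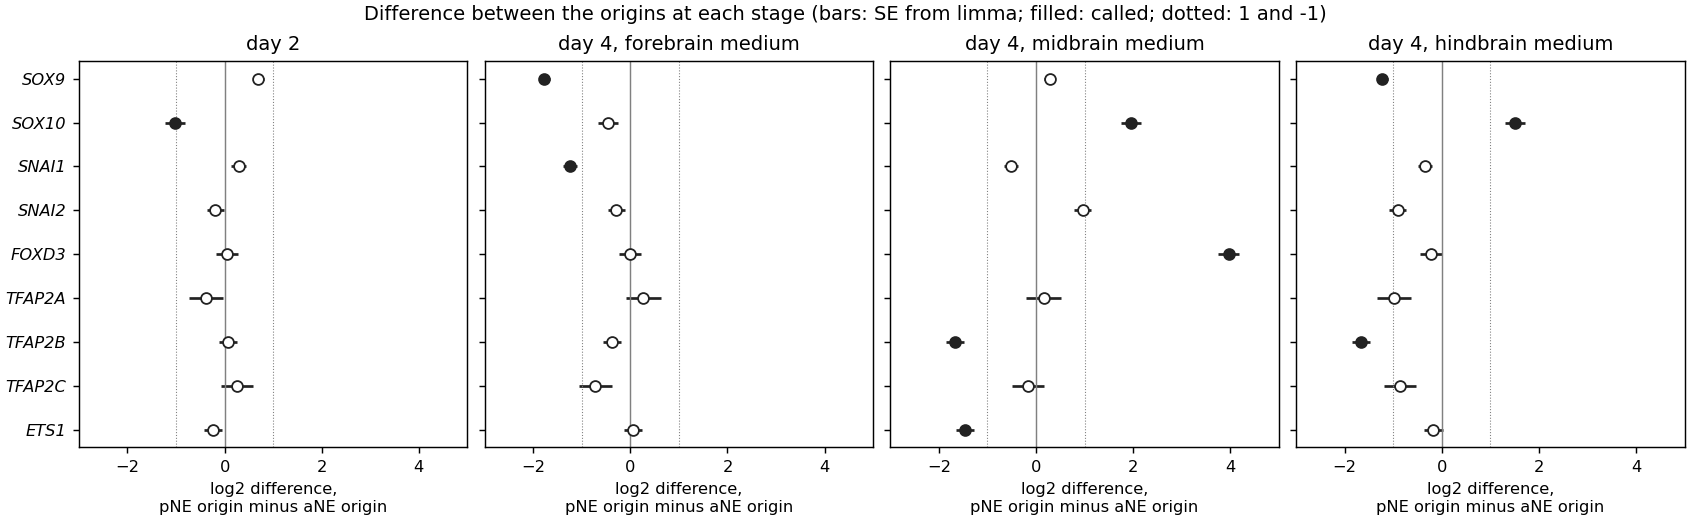
Difference between cells from pNE and from aNE for each of the 9 genes (log2(TPM + 1), posterior minus anterior) at day 2 and in the 3 day-4 media, with bars for the SE and filled points where the difference was called. SOX10 goes from -1.02 at day 2 to 1.96 in the midbrain and 1.51 in the hindbrain medium, and SOX9 from 0.69 to -1.77 in the forebrain medium.

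Between day 2 and day 4, aNE_T had 4 of 9 members called against 9.03% of all genes, with SOX9, SNAI2 and ETS1 higher and TFAP2C lower. In aNE_M 5 of 9 were called against 12.0%, with SOX10 and TFAP2C lower. In aNE_H 5 of 9 were called, all higher, against 10.1% in either direction and 3.24% higher. The median difference of the 9 members in aNE_H was 1.46, beside -0.04 over all tested genes. Both the count and the median include TFAP2A and TFAP2B, which were tested through the few groups where they were high, aNE_H among them. A filter at 5 TPM, which left these genes untested, gave 3 called in aNE_H against aNE. From pNE, 3 of 9 members were called in pNE_T against 10.2%, 5 of 9 in pNE_M against 12.7% and 4 of 9 in pNE_H against 12.3%, with TFAP2C lower in each. The median of the members was 0.80 in pNE_M and 0.83 in pNE_H, beside -0.06 and -0.08 over all genes, and -0.27 in pNE_T beside -0.03. The members called higher were SOX9, SNAI1, SNAI2, TFAP2A and TFAP2B in aNE_H and SOX10, SNAI2 and TFAP2A in pNE_H. In the midbrain medium they were SOX9, SNAI2 and TFAP2B in aNE_M and SOX9, SOX10, SNAI2 and FOXD3 in pNE_M. TFAP2B in aNE_M, FOXD3 in pNE_M and TFAP2A in pNE_H were likewise tested through the few groups where they were high, these among them.

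The media were also compared with each other within an origin. From aNE, 2 of 9 members were called in aNE_M against aNE_T, where 10.1% of genes were called, 3 of 9 in aNE_H against aNE_T (6.60%) and 5 of 9 in aNE_H against aNE_M (4.92%). The last 5, SOX9 (1.25 ± 0.11), SOX10 (1.72 ± 0.21), SNAI1 (1.11 ± 0.14), SNAI2 (1.71 ± 0.18) and TFAP2A (1.40 ± 0.36), were all higher in aNE_H, where 2.27% of all genes were called higher. TFAP2A was tested through the few groups where it was high, aNE_H among them. With only the libraries compared in the fit, 2 of these 5 were called. SOX10 and SNAI1 then had adjusted p of 0.0516 and 0.0517, the highest over their alternatives, from 2.63e-05 and 9.75e-05. The count for aNE_M against aNE_T includes TFAP2B, and that for aNE_H against aNE_T includes TFAP2A and TFAP2B. Both genes were tested through the few groups where they were high, so the shares over all genes are not a like measure. A filter at 5 TPM, which left these genes untested, gave 1 called in each comparison. From pNE, 4 of 9 were called in pNE_M against pNE_T (8.60%), 3 of 9 in pNE_H against pNE_T (5.03%) and 4 of 9 in pNE_H against pNE_M (5.99%). The first and last of these counts include FOXD3, tested through hPSC and pNE_M alone. In pNE_H against pNE_M, SOX10, SNAI1 and ETS1 were higher and FOXD3 lower, and ETS1 (1.63 ± 0.19) was not called with only the libraries compared in the fit (adjusted p = 0.0579, from 1.68e-05 to 0.0579 over its alternatives).

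Whether the change from day 2 to day 4 in a medium differed between origins was tested as the change from pNE minus the change from aNE. Each change takes in time and plating density as well as the medium. In the forebrain medium 2 of 9 members were called, against 7.14% of all genes: SOX9 at -2.47 ± 0.16 (SE, adjusted p = 3.34e-07) and SNAI1 at -1.53 ± 0.20 (adjusted p = 0.000205). In the midbrain medium 5 of 9 were called against 7.02%, led by FOXD3 at 3.91 ± 0.32 (adjusted p = 2.55e-06) and SOX10 at 2.98 ± 0.29 (adjusted p = 1.24e-05). The others there were SNAI2 at 1.15 ± 0.25 (adjusted p = 0.0072), TFAP2B at -1.74 ± 0.26 (adjusted p = 0.000569) and ETS1 at -1.23 ± 0.26 (adjusted p = 0.00715). The SNAI2 value was 0.96 without aNE replicate 2. In the hindbrain medium 3 of 9 were called against 7.83%: SOX10 at 2.53 ± 0.29 (adjusted p = 5.36e-05), SOX9 at -1.92 ± 0.16 (adjusted p = 3.22e-06) and TFAP2B at -1.72 ± 0.26 (adjusted p = 0.000552). SOX9 and SOX10, 2 genes of 1 family, had hindbrain values of opposite sign. The midbrain count includes FOXD3 and TFAP2B, and the hindbrain count includes TFAP2B. Both genes were tested through the few groups where they were high, pNE_M for FOXD3 and aNE_M and aNE_H for TFAP2B among them. For these 2 counts the shares over all genes are thus not a like measure.

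**Figure D4:**
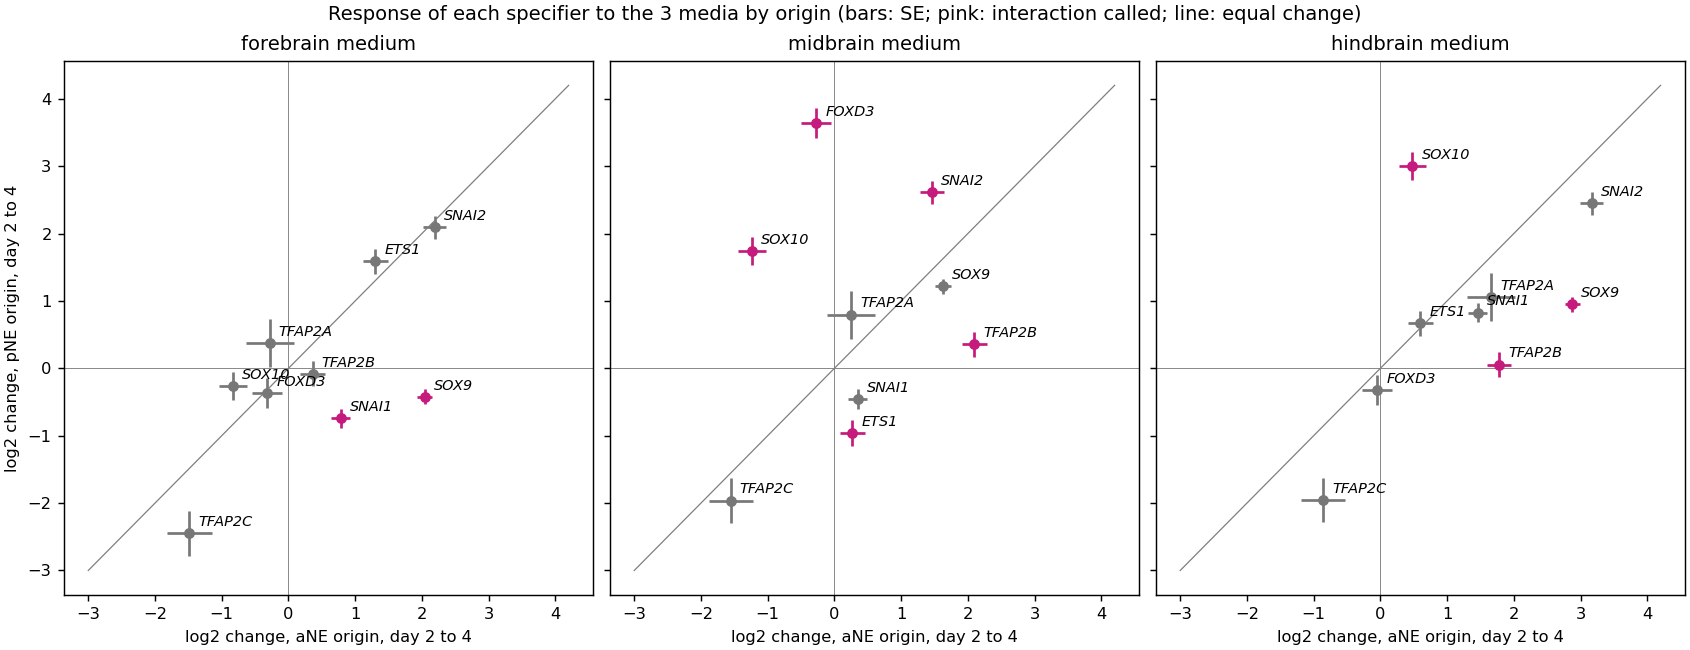
Change from day 2 to day 4 of each of the 9 genes in cells from aNE (horizontal axis) and from pNE (vertical axis), log2(TPM + 1), in 1 panel for each medium, with the line of equal change. SOX10 in the hindbrain medium is at 0.48 for aNE and 3.01 for pNE, and SOX9 in the forebrain medium at 2.04 and -0.42.

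Genes around the specifiers in the network were read from lists. Of the 10 neural plate border genes (PAX3, PAX7, MSX1, MSX2, ZIC1, DLX5, DLX6, GBX2 and PRDM1 among them), all tested, 6 were called higher and 2 lower in aNE_M against aNE (4.34% and 7.63% of all genes), 5 higher and 1 lower in aNE_H (3.24% and 6.83%) and 3 higher and 1 lower in aNE_T (4.61% and 4.42%). Against pNE, 6 were higher and 3 lower in pNE_M (4.87% and 7.85%), 4 higher and 3 lower in pNE_H (4.47% and 7.80%) and 1 higher and 4 lower in pNE_T (4.68% and 5.56%). PAX3, a paired-box border factor, was at 120 and 130 TPM in aNE_M, 54.2 and 50.3 TPM in aNE_H, 43.0 and 38.9 TPM in pNE_M and 2.37 and 4.54 TPM in pNE_H. MSX1, a homeobox gene induced by BMP and WNT signals, was at 280 and 243 TPM in aNE_M and 666 and 646 TPM in pNE_M, against 0.631 and 0.271 TPM in aNE. In pNE_H, where SOX10 was highest, 7 of the 10 border genes were lower than in aNE_H (2.91% of all genes) and 1 (PRDM1) was higher (3.92%).

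Of 12 genes of migrating crest, 10 were tested. In aNE_H 5 were called higher against aNE (TWIST1, EDNRB, CDH6 and CDH11 among them, with 3.24% of all genes higher) and none lower. In pNE_H 4 were called higher against pNE (EDNRB, CDH6 and CDH11 among them, with 4.47% of all genes higher) and 2 lower (NGFR, ERBB3, with 7.80% lower). The other media gave 3 higher in aNE_T (4.61% of all genes) and 2 higher and 4 lower in aNE_M (4.34% and 7.63%). From pNE they gave 3 higher and 2 lower in pNE_T (4.68% and 5.56%) and 4 higher and 2 lower in pNE_M (4.87% and 7.85%). TWIST1, a bHLH factor of crest and mesenchyme, was at 16.8 and 16.0 TPM in aNE_H, 9.45 and 8.21 TPM in pNE_M and 7.70 and 6.04 TPM in pNE_H. EDNRB, the endothelin receptor of migrating crest, was at 28.4 and 29.5 TPM in pNE_H and at 20.3 and 21.2 TPM in pNE_T, where SOX10 was at 0.394 and 0.809 TPM. RXRG was at or below 0.860 TPM in all 18 libraries. TFAP2A and SOX10 were also at low levels, at most 4.30 and 16.2 TPM.

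**Figure D5:**
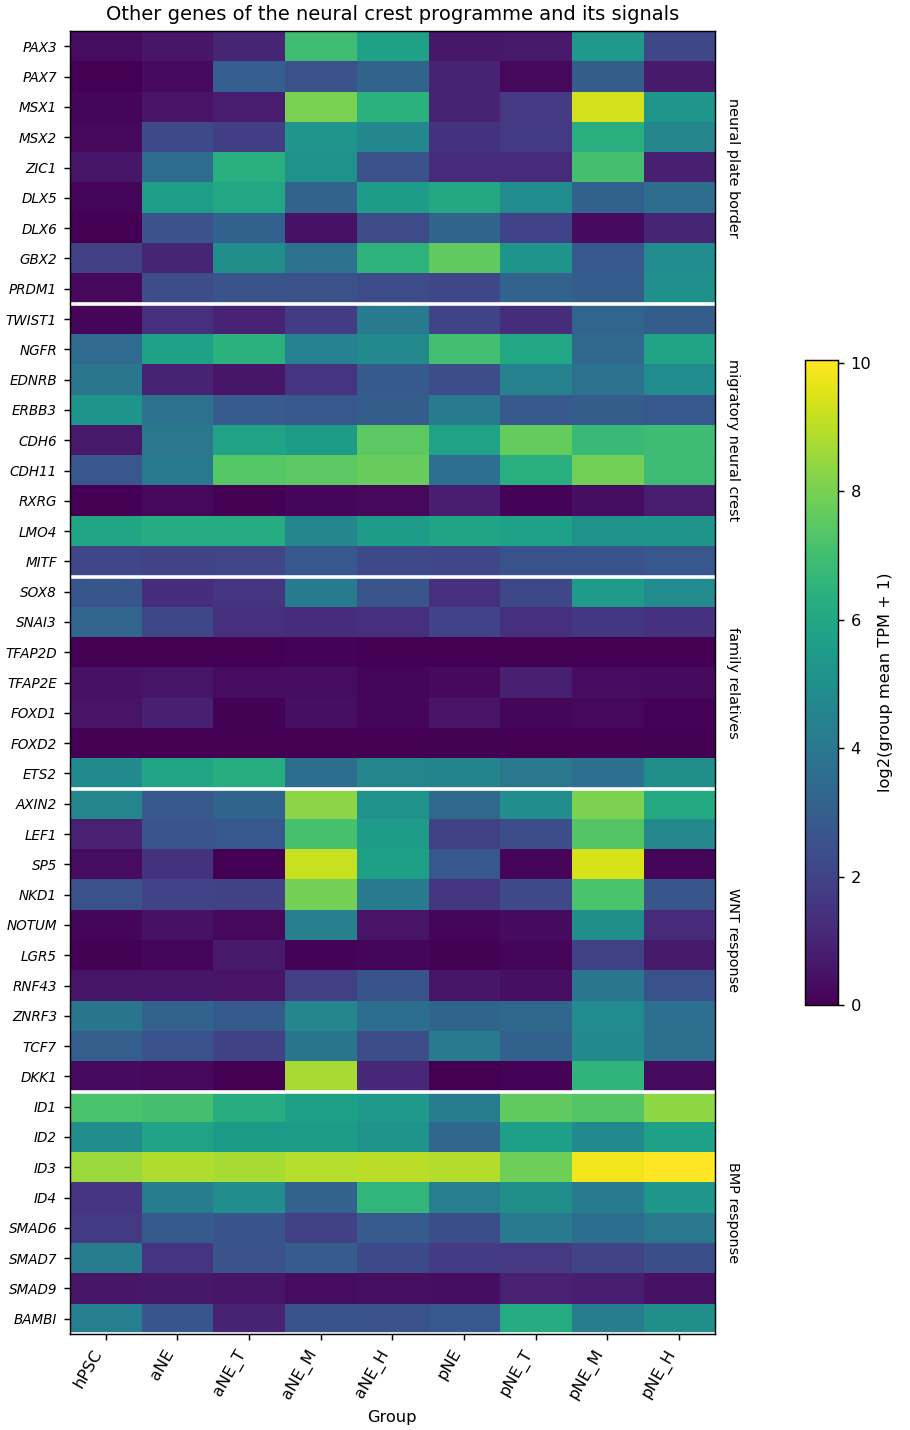
Level of most of the listed border, migrating crest, family relative, WNT response and BMP response genes (rows, grouped by list) in the 9 groups (columns), in colour as log2(group mean TPM + 1). MSX1 and AXIN2 stand out in aNE_M and pNE_M, and PAX3 is higher in aNE_H than in pNE_H.

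Genes that respond to WNT and BMP signals, which act on the border, were read in the same way. Of 10 WNT response genes, 9 were called higher in aNE_M against aNE (4.34% of all genes higher) and 9 in pNE_M against pNE (4.87%). In aNE_H 5 were higher (3.24%), and in pNE_H 4 were higher (4.47%) and 1 lower (7.80%). The forebrain medium had 1 lower in aNE_T (4.42%), and 1 higher and 2 lower in pNE_T (4.68% and 5.56%). AXIN2, a feedback inhibitor of WNT signalling, was at 315 and 312 TPM in aNE_M and 272 and 268 TPM in pNE_M, against 35.1 and 32.8 TPM in aNE_H and 73.3 and 66.2 TPM in pNE_H. Of 8 BMP response genes, 1 was called higher and 1 lower in aNE_H against aNE (3.24% and 6.83% of all genes). In aNE_T 1 was higher and 1 lower (4.61% and 4.42%), and in aNE_M 1 was higher and 2 lower (4.34% and 7.63%). Against pNE, 4 were called higher and 1 lower in pNE_T (4.68% of all genes called higher and 5.56% lower). In pNE_M 4 were higher (4.87%) and in pNE_H 5 (4.47%). ID1, a direct BMP target, was at 368 and 274 TPM in pNE_H and at 48.8 and 35.2 TPM in aNE_H. It was at 181 and 203 TPM in pNE_T, the group with the lowest mean SOX10. The SOX10 libraries of pNE_T overlapped those of aNE_M, where ID1 was called lower than in aNE. The part of either signal in the members' levels was not tested.

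Over the 9 group means, the genes most like 8 of the members by Pearson's r, among genes with a group mean of at least 5 TPM over log2(TPM + 1), are named here by rule. SOX9 was most like NUP58 (r = 0.974), SOX10 like BIRC6-AS2 (r = 0.897) and SNAI1 like HAPLN1 (r = 0.932). A high r does not mean a change of like size: mean NUP58 ran only from 31.9 TPM in hPSC to 45.4 TPM in aNE_H. Mean BIRC6-AS2 was 0 TPM in hPSC and 6.02 TPM in pNE_H, and in aNE_H it was 2.13 ± 3.01 TPM (SD). FOXD3 was most like PTGES2 (r = 0.982), TFAP2A like UBE2V2 (r = 0.949), TFAP2B like PAX5 (r = 0.966), TFAP2C like OR7E12P (r = 0.974) and ETS1 like MOB4 (r = 0.933). Among the members themselves SOX9 and SNAI2 were closest (r = 0.878), and SOX9 with SOX10 had r = 0.236. BIRC6-AS2 is an antisense gene, whose reads cannot be told apart from its partner's without strand. These values describe 9 points from the same libraries and carry no test.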

How the data were processed

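Gene levels are the authors' TPM values, deposited as 1 table with a column for each of the 18 libraries. Per the submitters' processing notes, bcl2fastq, FastQC, Trim Galore, kallisto and deepTools were used with the hg38 build. Tool versions, the annotation and any use of strand are not given in the sources used here. Each column has the same sum, so TPM keeps no depth and no counting intervals are given. Values were analysed as log2(TPM + 1), with a pseudocount of 1, for the 17033 genes that reached 1 TPM in 2 or more libraries, and such differences understate the change of low genes. Of the 37550 rows, 7898 had no gene symbol. A linear model with 1 mean for each group was fitted across the 18 libraries (9 residual degrees of freedom) in limma 3.58.1 under R 4.3.3, with trended variances, two-sided p-values and Benjamini-Hochberg adjustment over all tested genes. The fit, tested on simulated data, gave 18 comparisons of groups and 3 interactions. The members, the gene lists and the tests were chosen with earlier results of these data known. Named genes are the members, the listed genes and, for each member, the 3 genes of highest r over group means. A few of these are not reported here by name, and the listed ones stay in the counts. Alternatives were another pseudocount, other filters, median-ratio and quantile scaling, a fit of only the libraries compared, a replicate block, a call by adjusted p alone and leaving out each library. Gene positions and promoter windows are from RefSeq GRCh38.p14.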

Additional observations from a re-analysis of the deposited data

Results flagged for a closer look

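The test of the difference between the origins in their change from day 2 to day 4 drew attention to 10 results (log2 scale, change from pNE minus change from aNE, limma adjusted p over all genes). In the forebrain medium SOX9 was at -2.47 and SNAI1 at -1.53. In the midbrain medium FOXD3 was at 3.91, SOX10 at 2.98, SNAI2 at 1.15, TFAP2B at -1.74 and ETS1 at -1.23. In the hindbrain medium SOX10 was at 2.53, SOX9 at -1.92 and TFAP2B at -1.72. All 10 compare cells plated at different densities at day 4. With only the libraries compared in the fit, the ETS1 value was no longer called (adjusted p = 0.0518, from 0.00343 to 0.0518 over its alternatives). With a pseudocount of 0.1 the SNAI2 value was no longer called (adjusted p = 0.0519, from 0.00555 to 0.0519 over its alternatives).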

How the results depend on the processing

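The 9 members gave 76 calls over the 21 comparisons and interactions, of which 60 were kept under every alternative that tested them, and no called value changed sign. With a pseudocount of 0.1 the number of members called was 4 in pNE_T against aNE_T (2 with a pseudocount of 1) and 7 in aNE_T against aNE (4), and values of low genes grew by over 1.5 times, as for TFAP2B in aNE_M against aNE (4.82 beside 2.09). A filter at 5 TPM, which left some members untested, gave 3 in aNE_H against aNE (5), 1 in aNE_M against aNE_T (2) and 1 in aNE_H against aNE_T (3). Median-ratio and quantile scaling each gave 1 in aNE_M against aNE_T. A fit of only the libraries compared gave 0 in pNE against aNE (1) and 2 in aNE_H against aNE_M (5). A call by adjusted p alone gave 2 in pNE against aNE, 5 in pNE_T against pNE (3), 7 in pNE_H against pNE (4), 5 in aNE_M against aNE_T and 7 in aNE_H against aNE_T. Leaving out 1 library at a time gave 0 to 1 in pNE against aNE and 1 to 2 in aNE_M against aNE_T. Over all genes, a fit of only the libraries compared called 355 in place of 655 in pNE against aNE, 717 in place of 1164 in pNE_H against aNE_H, 373 in place of 838 in aNE_H against aNE_M and 473 in place of 857 in pNE_H against pNE_T. Replicate numbers did not pair the libraries: deviations of same-numbered libraries correlated at -0.090 to 0.076 over 36 pairs of groups. With a replicate block all 76 calls remained. With 2 libraries a group, leaving out a library leaves 1 in its group, which is assumed to vary like the other groups. Levels under 1 TPM (TFAP2A, TFAP2B and FOXD3 in most groups) rest on an unknown number of reads.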
